A study of Homo sapiens with 2 samples.

Results

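The genes described here are 45 genes of cell adhesion to the extracellular matrix, grouped by their roles; the list was drawn up with earlier results of these data known: 13 integrin subunits, 26 genes of signalling and of the adaptor proteins at focal adhesions, and 5 laminin chains with CD151. A gene was taken as measured where a probe set of the array carried its symbol and no other, which was so for 42 of the 45 genes among 19775 genes in all. ITGB6, FLNA and LAMA3 were not analysed here. The cells were HEC1A, an established human endometrial adenocarcinoma line, grown untreated in McCoy's medium with 10% FBS. RNA of cells overexpressing EMP2 was hybridized to 1 array, and RNA of cells with a short hairpin RNA knockdown of EMP2 to the other. EMP2 is epithelial membrane protein 2, a tetraspan membrane protein. With 1 array per group there is no replicate error, no test and no p-value, and each difference below is a difference between these 2 arrays. Unmodified HEC1A cells were not analysed here, so the contribution of each manipulation to a difference cannot be told apart, and whether a line was a single clone is not stated in the sources used here.

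Integrins are receptors made of an alpha and a beta subunit, which bind matrix proteins such as fibronectin, vitronectin and laminin outside the cell. Inside the cell, talin and kindlin bind the beta subunit's tail, and a plaque of adaptor proteins (paxillin, vinculin, the ILK-PINCH-parvin complex, zyxin) joins the receptor to actin and recruits the kinases FAK and SRC. Laminins are trimers of an alpha, a beta and a gamma chain and form the basement membrane under epithelia. EMP2 has been described as a partner of the integrin alphav beta3 and of FAK in endometrial cells, which is the question these genes bear on.

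The values were deposited on a log2 scale, and each difference is the overexpression value minus the knockdown value. A gene was represented by its brightest probe set and passed a brightness filter where the higher of its values reached 6.40. Of the 42 measured members, 37 passed, and the filter does not ask on which array. The brightest of 27 control probe sets for Bacillus subtilis transcripts, which human RNA should not light up, read 5.85. The most prominent results were higher ITGB5, on all 4 of its probe sets, and lower LAMB3, and most of the other members differed little. Among the 37 members, 2 were at least 1.5-fold higher in overexpression (ITGB5 and ITGB3) and 2 were at least 1.5-fold lower (LAMB3 and LPP), which is 5.41% in each direction. The same thresholds were reached by 4.97% of all 12061 filtered genes for higher values and by 4.15% for lower values, so the members' share was near that of all genes. At 2-fold, 1 member was higher and 1 lower, against 1.65% and 1.53% of all genes. The members' median difference was 0.08 and that of all genes 0.00. Of the 37 members 25 lay above 0, or 67.6%, against 45.6% of all genes.

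The promoters of ITGB5 and LAMB3 are shown because these genes had the largest difference in each direction. RefSeq's table for GRCh38.p14 holds windows for 32 of the 42 measured members, with 3 start sites each for ITGB5 and LAMB3. The 250 bases before a start are printed 5′ to 3′ on the gene's own strand, the minus strand for both genes, and the start with the most motif matches was chosen. Capitals mark matches, on either strand, to the GC box (GGGCGG) and the AP-1 site (TGACTCA). A TEAD site (GGAATG) and the CArG box of serum response factor were searched too and were not found in these 2 windows. The first window lies at chr3:124887366-124887615 and the second at chr1:209651375-209651624.

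ITGB5: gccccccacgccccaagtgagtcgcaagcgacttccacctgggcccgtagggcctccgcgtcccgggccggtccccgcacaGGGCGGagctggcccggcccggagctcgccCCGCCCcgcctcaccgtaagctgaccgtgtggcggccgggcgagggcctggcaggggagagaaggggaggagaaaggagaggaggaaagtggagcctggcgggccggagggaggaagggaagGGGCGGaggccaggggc
LAMB3: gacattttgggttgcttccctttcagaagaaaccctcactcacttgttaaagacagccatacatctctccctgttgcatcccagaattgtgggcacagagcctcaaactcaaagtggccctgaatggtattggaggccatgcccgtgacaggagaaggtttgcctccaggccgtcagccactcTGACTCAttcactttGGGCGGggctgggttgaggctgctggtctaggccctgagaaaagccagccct

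The printed windows differ in composition. The ITGB5 window is 75.2% G and C with 3 GC boxes and no AP-1 site, whereas the LAMB3 window is 54.0% G and C, with 1 AP-1 site that ends 60 bases before the start and 1 GC box that ends 46 bases before it. At the other start sites, ITGB5 had 2 and 0 GC boxes, and LAMB3 had 1 GC box at each and no AP-1 site. Those ITGB5 windows were 52.8% and 56.4% G and C, and those LAMB3 windows 60% and 64%. The contrast in composition thus belongs to the printed windows and did not hold at the other starts. GC boxes were found in 52.1% of the 71 windows of measured members and in 42.6% of all 35116 windows of the table. AP-1 sites were found in 7.04% of members' windows and in 4.20% of all, TEAD sites in 14.1% and 11.9%, and CArG boxes in 7.04% and 1.16%. The CArG matches were 5 windows of ACTN1, ITGB1BP1, LPP and RSU1, and start sites of a gene can share sequence. A match is a description of these letters and not a shown binding site.

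Of the 12 measured integrin subunits, 10 passed the filter. Of these, 2 were at least 1.5-fold higher in overexpression, none lower, and the median difference of the 10 was 0.17. The shares are 20% and 0%, against 4.97% and 4.15% of all 12061 genes. The 2 were ITGB5 and ITGB3, and the ITGB3 value depended on the probe set. ITGB5, the beta subunit that pairs with alphav to bind vitronectin, read 12.46 in overexpression and 10.87 in knockdown. The difference was 1.59, or 3.02-fold, and 64 of the 12061 genes had a larger positive one. Each of its 4 probe sets passed the filter and was higher by more than 1.5-fold. The other 3 read 8.67 against 7.62, 9.05 against 8.13 and 8.45 against 7.61, so the overexpression array was the higher on each. The smallest of these 4 differences was 0.84. The 10 filtered genes next to ITGB5 on chromosome 3, 5 on each side, had a median of 0.09. Of these, 2 were 1.5-fold or more higher and 1 lower, against 4.97% and 4.15% of all genes.

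ITGB3, the beta3 subunit of the vitronectin and fibrinogen receptor, was less uniform. On its brightest probe set the overexpression array read 9.05 and the knockdown array 8.41, which is 0.64 apart, or 1.56-fold. It had 6 filtered probe sets, 3 above 0 (0.64, 0.20 and 0.15) and 3 below (-0.01, -0.24 and -0.49). The one at -0.24 read 6.38 and 6.62 and passed the filter through the knockdown array alone. Only the brightest passed 1.5-fold, and another read 7.17 against 7.66, a difference of -0.49 in the opposite direction. The direction of ITGB3 therefore depended on the probe set read.

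ITGAV, the alphav subunit shared by the beta3, beta5 and beta8 receptors, read 11.92 and 11.66 on its only probe set, a difference of 0.26. ITGB8, whose receptor with alphav activates latent TGF-beta, had probe sets that disagreed in size. The brightest read 12.20 and 12.08, a difference of 0.12, whereas the other one past the filter read 7.90 and 6.83, a difference of 1.07. Both were higher in overexpression. ITGB1, the common beta1 subunit, read 13.63 and 13.42 on its brightest probe set. Its other 2 probe sets past the filter read 12.57 against 12.03 and 11.73 against 11.09, differences of 0.53 and 0.64. All 3 ITGB1 probe sets were thus higher, 1 of them beyond 1.5-fold.

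Among the other alpha subunits, ITGA3, which with beta1 binds laminin, read 10.68 and 10.35, a difference of 0.33. ITGA2, the collagen-binding alpha2 subunit, had the largest negative difference of the integrins, -0.49 (7.93 against 8.42), and its second probe set differed by -0.11. ITGA5, the alpha subunit of the fibronectin receptor, read 7.99 and 8.11, a difference of -0.11. The subunits of the hemidesmosome receptor alpha6 beta4 were both slightly lower in overexpression. ITGA6 read 11.11 and 11.27 and differed by -0.16 and -0.20 on its 2 probe sets, and ITGB4 read 8.06 and 8.27, a difference of -0.21. None of the 5 alpha subunits past the filter differed by 1.5-fold, and 90.9% of all genes were within 1.5-fold. The median of these alpha subunits was -0.11. That of the 5 beta subunits, among them ITGB3 with its disagreeing probe sets, was 0.21. ITGA1, at 5.28 and 5.37, did not exceed the bacterial controls on either array, and ITGA10, at 5.91 and 5.79, was below the filter.

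**Figure D1:**
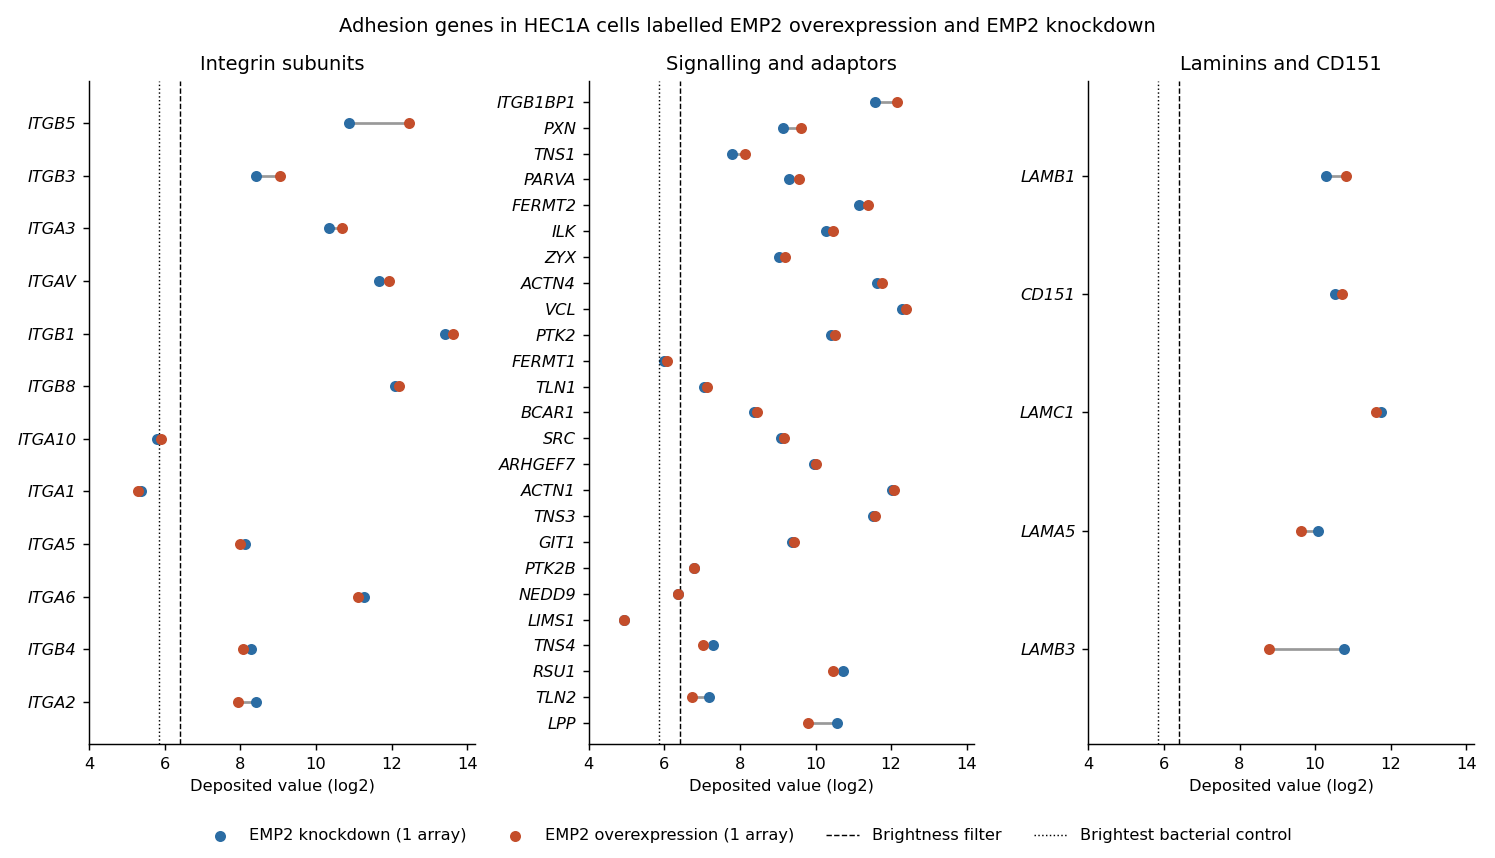
Deposited log2 values (horizontal axis) of the 42 measured genes in 3 panels by role, ordered by their difference, with 1 point for the overexpression array and 1 for the knockdown array and no error bars because each group has 1 array. The widest gaps are those of ITGB5 (12.46 against 10.87) and LAMB3 (8.78 against 10.76), and the points of most adaptor genes nearly coincide.

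The genes of the focal adhesion plaque differed by small amounts between the arrays. Of 25 measured genes, 22 passed the filter, 21 of these were within 1.5-fold, and 17 lay above 0, with a median difference of 0.08. The 21 are 95.5% of these genes, near the 90.9% of all 12061 genes that were within 1.5-fold. The kinases FAK and SRC were within 1.5-fold on each probe set past the filter. PTK2, which encodes FAK, read 10.52 and 10.42, a difference of 0.10, and its 3 probe sets past the filter ranged from -0.04 to 0.22. SRC read 9.16 and 9.08, a difference of 0.08, with its other probe set past the filter at 0.39. PTK2B, the FAK relative PYK2, read 6.79 on both arrays. The array measures RNA, so these values do not bear on the phosphorylation of the kinases.

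Among the substrates and scaffolds of these kinases, PXN, which encodes paxillin, read 9.61 and 9.14, a difference of 0.47 on its only probe set past the filter. BCAR1, which encodes the FAK and SRC substrate p130Cas, read 8.44 and 8.36. Its relative NEDD9, at 6.37 on both arrays, was below the filter. GIT1 and ARHGEF7, which encode a complex that binds paxillin and regulates RAC and CDC42, differed by 0.04 and 0.07.

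The proteins that bind the integrin tail were ITGB1BP1 (ICAP1, which binds the beta1 tail and limits its activation), the talins and the kindlins. ITGB1BP1 had the largest positive difference of the plaque genes, 0.58 (12.16 against 11.58), or 1.49-fold, and its second probe set past the filter differed by 0.34. With all 3 of its probe sets averaged the difference was 0.31. The 10 genes past the filter that lie nearest to it on chromosome 2, 5 on each side, were all above 0. Their median was 0.51, and 3 were at least 1.5-fold higher. Of all genes, 45.6% lay above 0 and 4.97% were at least 1.5-fold higher. The part of the neighbours' shared shift in the ITGB1BP1 value was not tested. FERMT2, which encodes kindlin-2, was higher on all 3 of its probe sets, by 0.24, 0.38 and 0.62. The brightest of them read 11.40 and 11.16. FERMT1, the epithelial kindlin, was below the filter at 6.07 and 5.98.

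Talin 1 (TLN1) read 7.14 and 7.05, and its 2 probe sets past the filter differed by 0.08 and -0.09. Talin 2 (TLN2) read 6.72 and 7.17, a difference of -0.46, and its other probe set past the filter differed by -0.13. Vinculin (VCL), which binds talin under tension, read 12.40 and 12.30. The actin cross-linkers ACTN1 and ACTN4 differed by 0.06 and 0.13. TLN1, TLN2, VCL, ACTN1 and ACTN4 thus showed no difference of 1.5-fold between these arrays on any probe set past the filter.

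In the complex around integrin-linked kinase, ILK read 10.46 and 10.28, a difference of 0.19. PARVA, which encodes alpha-parvin, read 9.56 and 9.30, but its 5 probe sets past the filter ran from -0.30 to 0.57, with 3 above 0 and 2 below. RSU1, which binds the PINCH protein of this complex, was lower on both probe sets past the filter, by -0.27 (10.47 against 10.73) and -0.38. LIMS1, which encodes PINCH1 itself, did not exceed the bacterial controls on its 3 single-symbol probe sets and had no usable value.

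The tensins, which bind beta tails in longer-lived adhesions, did not share a direction. TNS1 was higher on all 4 probe sets past the filter, by 0.04 to 0.42, and its brightest read 8.13 and 7.79. TNS3 read 11.57 and 11.53. TNS4, an epithelial tensin, read 7.03 and 7.28, a difference of -0.24. Of the LIM proteins that respond to tension, ZYX, which encodes zyxin, read 9.20 and 9.04, and its 2 probe sets differed by 0.15 and 0.14.

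LPP, a relative of zyxin, was the plaque gene past 1.5-fold. The overexpression array read 9.81 and the knockdown array 10.56, which is -0.75, or 1.68-fold lower. Its filtered probe sets numbered 6, and 4 of them lay below 0. Those at -0.75, -0.53 and -0.55 formed the lower part, and those at -0.09, 0.02 and 0.05 showed almost no difference. The probe set at -0.55 read 6.12 and 6.68 and passed the filter through the knockdown array alone, so its direction followed from the filter. Where these probe sets lie in the transcript was not known here.

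**Figure D2:**
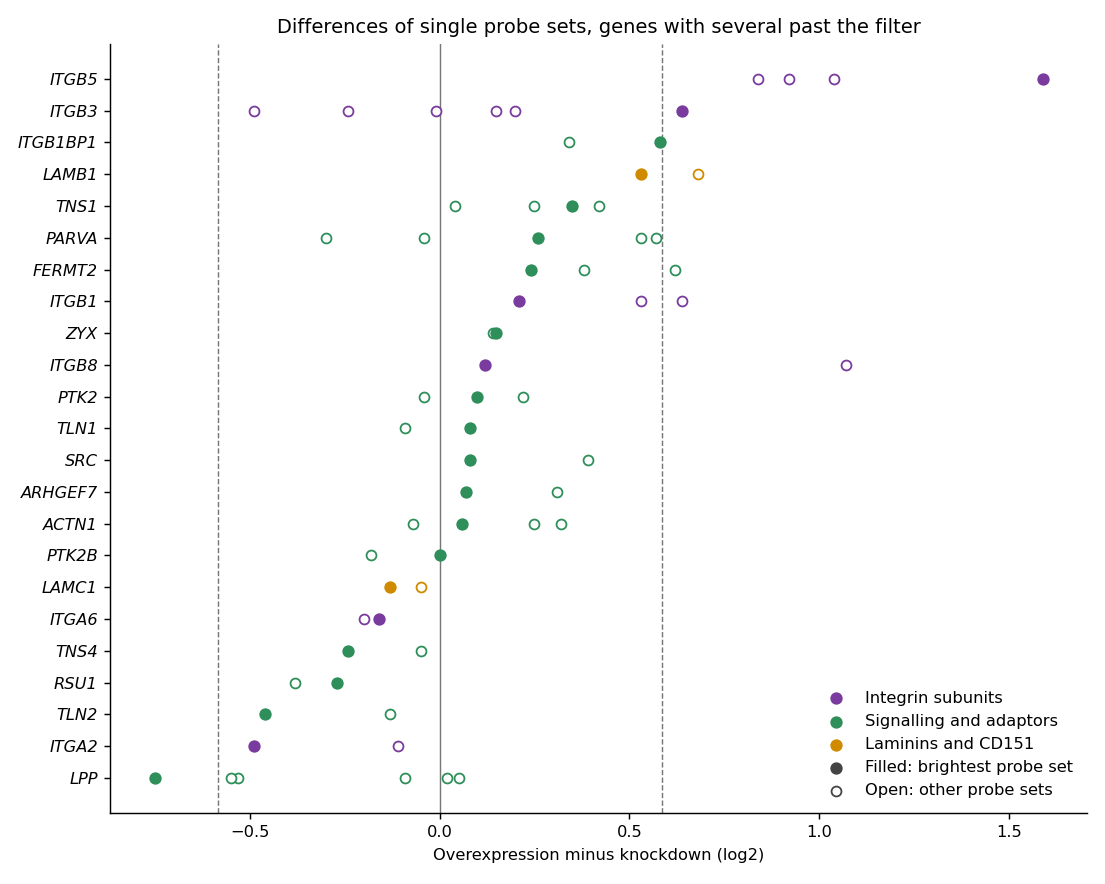
Overexpression minus knockdown (log2, horizontal axis) of each probe set past the filter, for the 23 members with at least 2 of them; filled points are the brightest probe set of a gene, open points the others, and dashed lines mark 1.5-fold. All 4 points of ITGB5 lie right of the line, whereas those of ITGB3 run from -0.49 to 0.64 and those of PARVA from -0.30 to 0.57.

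How far probe sets of a gene disagree can be measured, but it is no replicate error. Among 5567 genes with at least 2 probe sets past the filter, the differences of the 2 brightest lay a median of 0.13 apart, and 95% lay within 0.61. For the 23 such members the median was 0.23, and the widest gap was 1.13, in ITGB3. The 2 brightest probe sets of ITGB5, at 1.59 and 0.92, lay 0.67 apart, which is more than the 0.61 above, and the lowest of its 4 differences was 0.84. Over single probe sets, 9 of the members' 80 that passed were 1.5-fold or more higher and 2 lower, against 4.89% and 3.89% of all 21144. Of the 9, ITGB5 gave 4, and ITGB1, ITGB3, ITGB8, FERMT2 and LAMB1 gave 1 each.

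The laminin chains lay in opposite directions. LAMB3, the beta3 chain found in laminin-332 of epithelial basement membranes, read 8.78 in overexpression and 10.76 in knockdown. The difference was -1.98, or 3.94-fold lower, and 47 of the 12061 genes had a larger negative one. LAMB3 had 1 single-symbol probe set, so no second reading of this difference was possible. The 10 filtered genes next to LAMB3 on chromosome 1, 5 on each side, had a median of -0.10. Of these, 2 lay above 0 and 2 were 1.5-fold or more lower, against 45.6% and 4.15% of all genes. Whether LAMB3 shares a shift with these neighbours was not tested. LAMA5, the alpha chain of laminin-511, read 9.64 and 10.09, a difference of -0.45 on its only probe set. LAMC1, the gamma1 chain of most laminins, read 11.62 and 11.75 and differed by -0.13 and -0.05 on its 2 probe sets.

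LAMB1, the beta1 chain, had the opposite direction. It read 10.82 and 10.29 on one probe set and 10.69 and 10.02 on the other, differences of 0.53 and 0.68. CD151, a tetraspanin that holds the laminin-binding integrins alpha3 beta1 and alpha6 beta4 in the membrane, read 10.70 and 10.53. The median of these 5 measured members was -0.13, and 1 of the 5, LAMB3, was past 1.5-fold. That is 20% lower, against 4.15% of all 12061 genes.

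The laminin chains that are not members were mostly dim. Of 6 measured, 3 passed the filter and all 3 were above 0, against 45.6% of all 12061 genes. LAMA1, the alpha1 chain, read 7.09 in overexpression and 5.95 in knockdown, a value barely above the bacterial controls, which is a difference of 1.15 or 2.21-fold. It passed the filter through the overexpression array alone, so its direction in these counts followed from the filter. Its other probe set was below the filter at 5.98 and 6.06. LAMA2, the alpha2 chain, read 8.38 and 7.67, a difference of 0.71, and its 3 filtered probe sets each reached 1.5-fold. LAMB2 differed by 0.23. Of the 7 laminin chains past the filter, LAMA1, LAMA2, LAMB1 and LAMB2 thus had the higher value in overexpression, and LAMA5, LAMB3 and LAMC1 the lower.

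**Figure D3:**
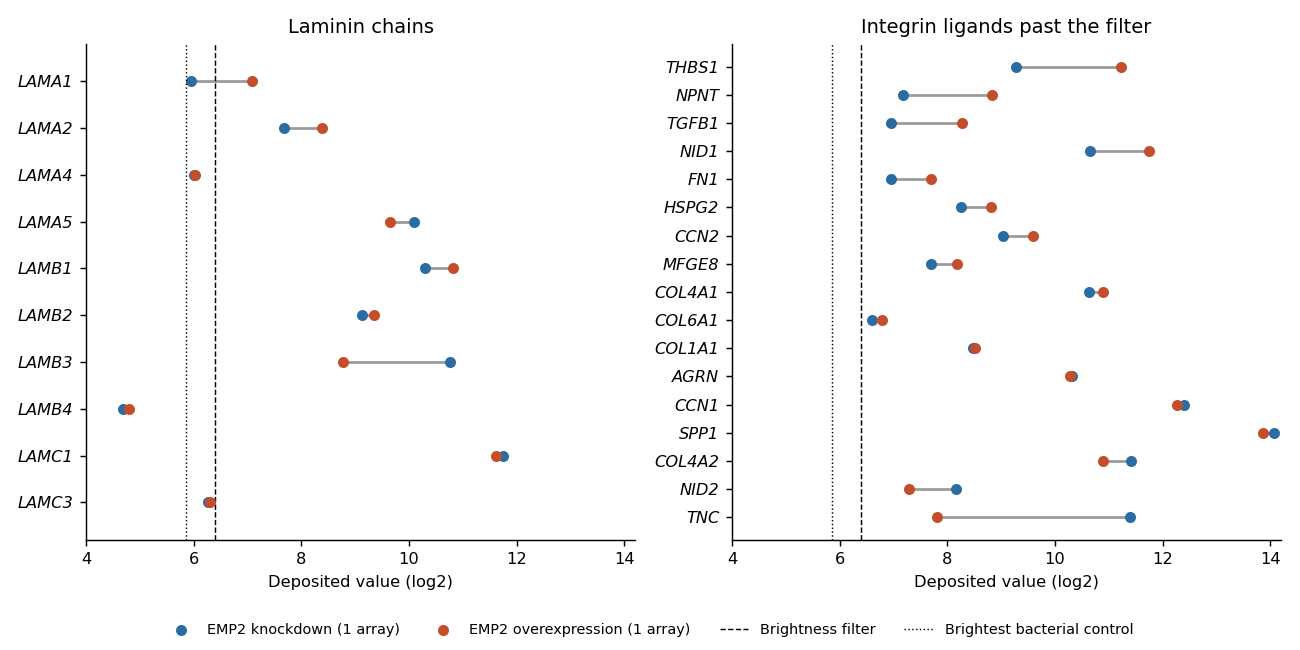
Deposited log2 values (horizontal axis) on the overexpression and the knockdown array, for the 10 laminin chains measured (left) and the 17 integrin ligands past the filter (right); each point is 1 array and there are no error bars. LAMB3 and TNC have the higher value in knockdown by the widest margins, and LAMA1, THBS1 and NPNT lie higher in overexpression.

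Several matrix proteins that integrins bind differed between the arrays. Of 17 ligands past the filter, 7 reached 1.5-fold, and the median of the 17 was 0.26. Higher in overexpression were 5 of them, or 29.4%, against 4.97% of all 12061 genes. Lower were 2, or 11.8%, against 4.15%. This list, too, was chosen with earlier results of these data known, so its shares are a description only. THBS1, which encodes thrombospondin 1, differed by 1.95 (11.22 against 9.27). NPNT, which encodes nephronectin, read 8.83 and 7.18, a difference of 1.64 on its only probe set past the filter. TGFB1, whose latent form is bound by alphav integrins, read 8.27 and 6.95 on its only probe set past the filter.

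The nidogens, which link laminin to collagen IV, went opposite ways. NID1 read 11.75 and 10.65, a difference of 1.09, and NID2 read 7.28 and 8.16, a difference of -0.88 on its only probe set. TNC, which encodes tenascin C, read 7.81 and 11.40, a difference of -3.59 on its only probe set past the filter. Its probe sets below the filter differed by -0.13 and -1.01.

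Of 13 other integrin subunits, 6 passed the filter, and on the brightest probe sets their differences ran from 0.00 to 0.20. A second filtered probe set of ITGB2, the leukocyte beta2 subunit, read 6.43 and 5.57, and the knockdown value was not above the bacterial controls. Of 34 other focal adhesion genes past the filter, none was 1.5-fold higher and 1, or 2.94%, was lower. The shares of all genes were 4.97% and 4.15%, and the median of the 34 was 0.00. The lower gene was YES1, a SRC family kinase. It differed by -0.91 on both of its probe sets past the filter (10.26 against 11.17 on the brighter). ENAH, an actin regulator at adhesions, read 11.32 and 10.85, and its 4 filtered probe sets ran from -0.17 to 0.93. The ENAH probe set at -0.17 read 6.27 and 6.44 and passed the filter through the knockdown array alone. The median of 11 genes of hemidesmosomes, non-integrin matrix receptors and other surface proteins was 0.18. On its brightest probe set 1 of them (9.09%, against 4.97% of all genes) was at least 1.5-fold higher. It was SDC1, which encodes syndecan 1, at 11.00 and 10.25, and its second probe set differed by 0.63. CD44, a hyaluronan receptor, read 12.35 and 12.15 on its brightest probe set, but each of its 8 filtered probe sets was higher, by 0.20 to 0.95, and 6 of them reached 1.5-fold. CD47, an integrin-associated receptor, ran from -0.09 to 0.67 over 6 filtered probe sets. The one at 0.67 read 6.78 and 6.11 and passed the filter through the overexpression array alone. CD44, CD47, ENAH and the second ITGB2 probe set were chosen after their values were seen.

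**Figure D4:**
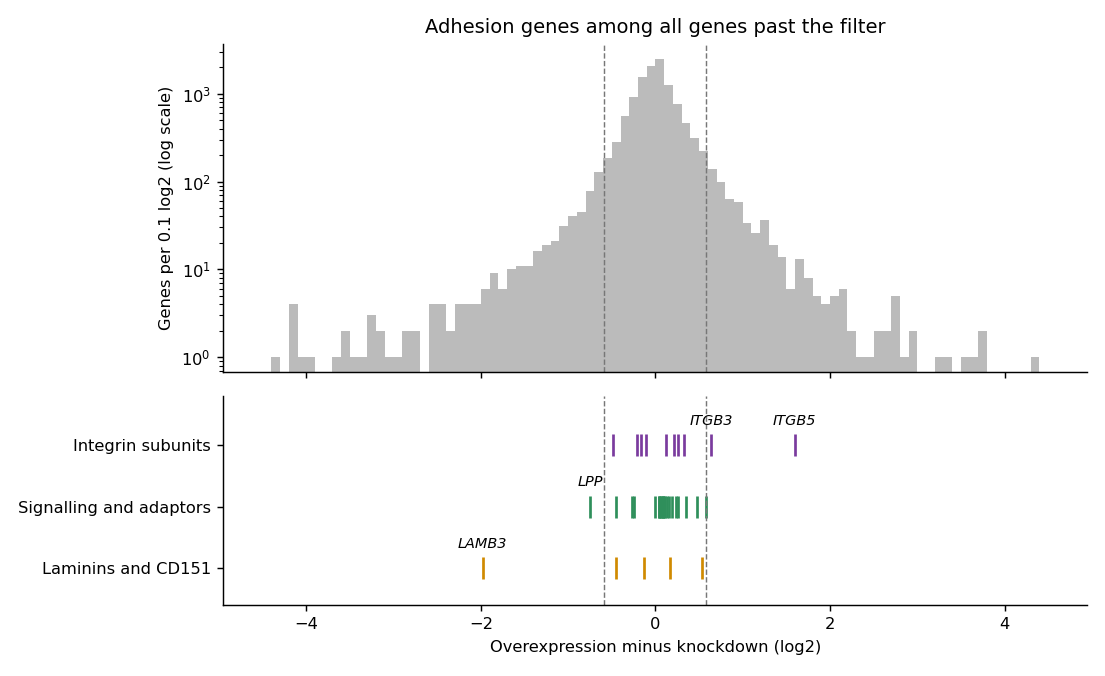
Number of genes per 0.1 log2 step of difference (upper panel, log-scaled vertical axis) for the 12061 genes past the filter, and the 37 members past it as ticks by role (lower panel), on a shared axis of overexpression minus knockdown (log2) with dashed lines at 1.5-fold. ITGB5 at 1.59 and LAMB3 at -1.98 stand in the sparse flanks, and 33 of the members lie between the dashed lines.

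The arrays were checked against their labels. The brightest probe set for EMP2 read 12.25 and 9.51, but its other 3 probe sets differed by only 0.00 to 0.39. Epithelial markers were present on both arrays, with EPCAM at 13.13 and 13.12, PAX8 at 11.26 and 11.33, and 11 of 12 past the filter. Among them KRT19 (-0.97) and KRT8 (-0.77) were lower and CDH1 (1.08) higher, and their part in the results above was not tested. None of 6 fibroblast markers, 1 of 4 leukocyte markers, 2 of 6 endothelial markers and 3 of 4 platelet markers passed, and the largest difference among these 6 on the brightest probe set was 0.20. A bulk array cannot tell less RNA per cell from fewer cells with it.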

How the data were processed

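The deposited table holds 1 log2 value per probe set and array for 54675 probe sets. Base 2 is not stated and was inferred, since values run from 2.01 to 14.72. Partek 6.6 was used, per the submitters' processing notes; for background correction, normalization and summarization the method is not stated. The array medians were 6.02 and 6.01, so a shift common to most genes would not be visible. Per the labels, RNA was biotin-labelled with an Affymetrix whole-transcript kit. Values were used as deposited. Probe sets with exactly 1 symbol (41097) were named from the platform annotation, and a gene was represented by its probe set with the highest mean. The filter was the median of all single-symbol values. All members, and members or list genes past 1.5-fold (up to 6 per list), could be named. The members and lists were chosen with earlier results of these data known. The alternatives were other probe-set rules, centring, quantile normalization and other filters. The counting was tested on simulated data (Python 3.11.15, pandas 2.3.3).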

Additional observations from a re-analysis of the deposited data

How the results depend on the processing

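With 1 array per group no replicate could be left out, and no depth applies to arrays, whose number limits the precision. No paired analysis was possible because each group has 1 array. Of 43 summary values under the alternatives, 40 stayed within 0.1 log2 units or, for counts, within 1.5 times. The exceptions came from the probe-set rule. With the brightest probe set whose name ends in neither _s_at nor _x_at, 1 member was at least 1.5-fold higher in place of 2, and ITGB3 turned to -0.49. With a gene's probe sets averaged, over all of them or over those past the filter, 1 member was at least 1.5-fold lower in place of 2. The higher members changed under both of these averages, since ITGB3 fell to 0.04 and LAMB1, at 0.61, passed 1.5-fold. With filtered probe sets averaged ITGB8, at 0.60, passed it too, and 3 members were higher in place of 2. Centring and quantile normalization changed no count of members. ITGB5 (1.04 to 1.59) and LAMB3 (-1.99 to -1.98) stayed past 1.5-fold under all 7 alternatives, LPP under 5 and ITGB3 under 4. PARVA ran from -0.30 to 0.26, ITGB8 from 0.10 to 0.60, ITGB1 from 0.20 to 0.53 and LPP from -0.76 to -0.24. ITGB1BP1, at 0.58, was 0.46 with filtered probe sets averaged, 0.31 with all averaged and 0.00 on its probe set that ends in neither suffix, which read 5.28 on both arrays, not above the bacterial controls. Without ITGB5 and LAMB3, chosen after seeing the data, the members' median was 0.08.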
